A study of Homo sapiens with 27 samples.

Results

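Integrins and the proteins of focal adhesions form the set of 36 genes described here, among 60604 genes counted in the series. They were taken by symbol: 12 integrin alpha chains, 7 integrin beta chains and 17 proteins that join integrins to actin or signal from them. All 36 have a row in the count table, and 34 had enough counts to be tested. All groups are EA.hy926, an endothelial hybrid that descends from human umbilical vein cells and the A549 lung carcinoma line. In 6 groups these cells spent 48 h with ASC52telo, an immortalised line of adipose mesenchymal stromal cells (MSCs), or with the products of that line. Senescent MSCs had received 1.5 µg/mL of the crosslinking drug mitomycin C over 18 h, followed by 10 days in culture. Young MSCs had none. The groups are senescent co-culture and young co-culture, in which 1 MSC was mixed with each endothelial cell, senescent ECM and young ECM, in which endothelial cells were seeded on matrix left after MSCs were stripped off in 5 min by 20 mM NH4OH with 0.5% Triton X-100, senescent CM and young CM, in which MSC-conditioned medium was mixed with endothelial medium in equal parts, and control cells with no exposure. Of the 7 groups, 6 had 4 libraries and senescent co-culture had 3, numbered 2 to 4. Both cell lines grew in DMEM/F12 with 10% serum. The labels do not say whether endothelial cells were parted from MSCs after co-culture, and the extraction text speaks of RNA from MSCs although the cell type given is endothelial.

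Integrins are heterodimers of an alpha and a beta chain that bind matrix outside the cell and actin inside it. The alpha chain largely sets the ligand: alpha 1, 2, 10 and 11 with beta 1 bind collagens, alpha 3, 6 and 7 bind laminins, and alpha 5 and alpha V bind the RGD sites of fibronectin, vitronectin and related proteins. Talins and kindlins bind the beta tail and switch the receptor on. Vinculin, alpha-actinins, filamin and zyxin then tie it to actin, and FAK, SRC, paxillin and p130Cas carry its signal. In endothelial cells these receptors hold the cell to its basement membrane, and alpha V beta 3 and alpha 5 beta 1 are known from sprouting vessels.

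Tests and means use replicates 2 to 4 of each group, 21 of the 27 libraries. Replicate 1 is given apart because markers of stromal cells split it from the rest: COL1A1, a collagen I chain, was at 1915 to 5135 CPM in replicate 1 of control, ECM and CM, and at 4.43 to 10.4 CPM in replicates 2 to 4 of those groups. CPM are counts scaled to library size with TMM factors. The library labelled young co-culture replicate 1 stood apart otherwise, with 23.6% of its counts from ribosomal protein genes, against 5.18 to 8.13% in replicates 2 to 4 of that group, and it held the lowest value of all 27 libraries for 27 of the 36 members, ties not counted. How many of all genes were lowest in that library was not counted. Of the endothelial markers, PECAM1 averaged 508 CPM and CDH5 255 CPM in control, while CLDN5 was at 0 and EMCN at 0.0034 CPM. Of the epithelial ones, KRT7 averaged 1284 CPM and CDH1 was at 0. The labels name 1 sequencing run and do not say whether replicates are separate cultures, so p-values reflect only how these libraries scatter, and that scatter may be technical.

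Per kilobase of exon, averaged over the 21 libraries, FLNA (filamin A, an actin cross-linker) led the set at 281 CPM per kb, followed by ACTN4 (alpha-actinin 4) at 188, ITGA5 (the alpha chain of the fibronectin receptor) at 121, ZYX (zyxin) at 102 and ITGB1, the shared beta chain, at 96.4 CPM per kb. The ranges of neighbours in that order overlapped over the 21 libraries: ITGA5 spanned 61.3 to 189 and ZYX 74.0 to 139 CPM per kb. Among alpha chains ITGA3 (49.9) and ITGA6 (45.7 CPM per kb), both laminin receptors, came next, then ITGA2 (14.7) and ITGAV (14.3 CPM per kb). ITGB5 (35.0 CPM per kb) was the most abundant partner of alpha V apart from ITGB1, above ITGB3 (4.82), ITGB8 (0.577) and ITGB6 (0.107 CPM per kb). ITGA7, ITGA11, ITGB6 and ITGB2 (the beta chain of leukocyte integrins) all lay under 0.2 CPM per kb. ITGA8 and ITGA9, receptors for nephronectin and tenascin-C in other tissues, had 5 counts each over the 21 libraries and were not tested. Their highest levels in any library were 0.0779 CPM for ITGA8 and 0.293 CPM for ITGA9, both in replicate 1.

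In direct co-culture the members called higher than in control were all integrin chains, among them ITGA5, ITGAV, ITGB3 and ITGB8. With senescent MSCs 10 of the 34 members tested were called higher and 0 lower, where 5.82% of all genes tested were called higher and 2.23% lower (8.05% in either direction). With young MSCs 8 were called higher and 1 lower, against 6.71% higher and 2.97% lower of all genes (9.68% in either direction). The integrin chains tested numbered 17, and the 1 member called lower was TLN2, a talin. The median log2 fold change of the 17 integrin chains was 0.82 with senescent and 0.61 with young MSCs, and that of the 17 focal adhesion proteins was -0.15 in both, beside 0.02 and 0.01 over all genes. Both comparisons share the same control libraries. With the GC and length slopes of each library as terms, an alternative chosen after seeing the data whose slopes come from the same counts, 23 members were called with senescent MSCs (16 higher and 7 lower) and 24 with young MSCs (14 and 10), with the focal adhesion proteins LIMS1 and PXN among the higher ones in both. The shares over all genes above are those of the main fit, and none is given for the fit with slopes or for the fits that follow. With replicate 1 kept in the fit, which adds no senescent co-culture library, 0 were called in either. Without senescent co-culture 2, senescent co-culture 3 or control 4 the senescent count was 5, 3 and 4, and without young co-culture 2 or 4 the young count was 5 and 4. Unless the lines were parted, RNA of both is read together in co-culture, and in bulk RNA fewer cells of a type and less RNA per cell cannot be told apart.

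The fibronectin and vitronectin receptors come first. Positions are those of GENCODE 29 on GRCh38, and adjusted p-values are from edgeR's quasi-likelihood test with Benjamini-Hochberg adjustment over all genes tested. ITGA5 (ENSG00000161638.11, chromosome 12, 54395261 to 54419460) stood at 1278, 1377 and 1433 CPM in senescent co-culture (replicates 2, 3 and 4, in that order here and below), at 1246, 942 and 1111 CPM in young co-culture and at 904, 552 and 813 CPM in control. All 3 senescent co-culture libraries and all 3 young ones lay above the control libraries. The log2 fold change, given with its SE throughout, was 0.90 ± 0.18 (adjusted p = 0.00821) with senescent MSCs. With young MSCs it was 0.58 ± 0.18 (adjusted p = 0.0598), and it passed with the replicate number as a block (0.59, adjusted p = 0.0268), which pairs young co-culture with control, and with DESeq2 (0.56, adjusted p = 0.0365). ITGAV (ENSG00000138448.12, chromosome 2, 186590065 to 186680901), the alpha chain shared by the vitronectin and latent TGF-beta receptors, was at 170.2, 184 and 221 CPM in senescent co-culture, at 193, 148 and 164 CPM in young co-culture and at 79.0, 101 and 116 CPM in control. Its groups did not overlap with control. The log2 fold changes were 1.01 ± 0.17 (adjusted p = 0.00326) in senescent and 0.81 ± 0.17 (adjusted p = 0.0116) in young co-culture, and the young call was lost without young co-culture replicate 2 (adjusted p = 0.0571). ITGA4 (ENSG00000115232.14, chromosome 2, 181457202 to 181536187), which binds VCAM1 and fibronectin, was at 51.7, 55.0 and 63.1 CPM in senescent co-culture, 59.3, 52.3 and 57.1 CPM in young co-culture and 28.9, 40.1 and 44.8 CPM in control. Again no co-culture library fell within the control range. The log2 fold changes were 0.62 ± 0.16 (adjusted p = 0.0379) and 0.61 ± 0.16 (adjusted p = 0.0396) with senescent and young MSCs, and each was lost without any 1 of its 3 co-culture libraries or without control replicate 4 (adjusted p 0.0602 to 0.159 and 0.0607 to 0.137).

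Of the beta chains that pair with alpha V, ITGB8 passed in both co-cultures, ITGB6 with senescent MSCs, ITGB3 and ITGB5 with young MSCs, and ITGB1 in neither. ITGB3 (ENSG00000259207.9, chromosome 17, 47253846 to 47311816), known from sprouting endothelium, was at 17.4, 23.05 and 27.6 CPM in senescent co-culture, 37.9, 22.8 and 33.3 CPM in young co-culture and 15.2, 6.66 and 13.9 CPM in control. The young co-culture libraries lay above the control ones, as did the senescent ones, of which replicate 2 was nearest. The fold passed with young MSCs, 1.43 ± 0.29 (adjusted p = 0.0101) on the log2 scale, and was 0.98 ± 0.29 (adjusted p = 0.0620) with senescent MSCs, where DESeq2 called it (0.95, adjusted p = 0.0143). ITGB5 (ENSG00000082781.12, chromosome 3, 124761948 to 124901418), the vitronectin receptor of many cell types, was at 275, 288 and 258 CPM in senescent co-culture, 335, 286 and 306 CPM in young co-culture and 232, 148 and 233 CPM in control, with log2 fold changes of 0.47 ± 0.17 (adjusted p = 0.126) and 0.64 ± 0.17 (adjusted p = 0.0364). The young call was lost without any 1 young co-culture library or without control replicate 4 (adjusted p 0.0592 to 0.132). ITGB8 (ENSG00000105855.10, chromosome 7, 20330702 to 20415754), which with alpha V frees latent TGF-beta, was at 11.8, 14.1 and 12.9 CPM in senescent co-culture, 12.6, 10.4 and 13.1 CPM in young co-culture and 5.00, 8.61 and 7.71 CPM in control. Its log2 fold changes were 0.91 ± 0.19 (adjusted p = 0.0128) with senescent and 0.80 ± 0.19 (adjusted p = 0.0240) with young MSCs. Both lost the call without some libraries: senescent co-culture 3 or control 4 (adjusted p 0.0754 and 0.0536), and young co-culture 2, young co-culture 4 or control 4 (0.0921, 0.092 and 0.0776). ITGB6 (ENSG00000115221.12, chromosome 2, 160099666 to 160200313), the epithelial partner that also frees latent TGF-beta, stayed under 1.1 CPM, with 1.02, 0.758 and 0.726 CPM in senescent co-culture, 0.647, 0.728 and 0.748 CPM in young co-culture and 0.285, 0.530 and 0.353 CPM in control. Its log2 fold change passed with senescent MSCs, 1.15 ± 0.27 (adjusted p = 0.0231), and was 0.90 ± 0.27 (adjusted p = 0.0595) with young MSCs. It rests on 31 to 88 counts a library, and the senescent call was lost without senescent co-culture 2, senescent co-culture 3 or control 4 (adjusted p = 0.131, 0.0653 and 0.11).

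Among the collagen receptors, ITGA11 (ENSG00000137809.17, chromosome 15, 68296533 to 68432162), a fibroblast integrin, was at 2.69, 1.84 and 1.97 CPM in senescent co-culture, 3.10, 2.38 and 2.41 CPM in young co-culture and 1.08, 1.04 and 1.05 CPM in control. The log2 fold changes were 1.08 ± 0.20 (adjusted p = 0.00659) with senescent and 1.35 ± 0.20 (adjusted p = 0.00174) with young MSCs, and both kept their call without any 1 library. ITGA10 (ENSG00000143127.13, chromosome 1, 145891208 to 145910189), a collagen II receptor of cartilage, was at 12.1, 12.7 and 9.80 CPM in senescent co-culture, 18.4, 13.3 and 15.2 CPM in young co-culture and 7.50, 4.97 and 7.03 CPM in control, with log2 fold changes of 0.87 ± 0.19 (adjusted p = 0.0131) and 1.31 ± 0.19 (adjusted p = 0.00126). The senescent call was lost without senescent co-culture 2, senescent co-culture 3 or control 4 (adjusted p = 0.0689, 0.0769 and 0.0531). ITGA1 (ENSG00000213949.10, chromosome 5, 52787896 to 52959210), a receptor for collagens I and IV, was at 9.35, 9.01 and 12.3 CPM in senescent co-culture, 9.19, 7.89 and 9.47 CPM in young co-culture and 4.95, 6.996 and 7.05 CPM in control. Both co-cultures lay above control. The log2 fold change passed with senescent MSCs, 0.74 ± 0.18 (adjusted p = 0.0262), and was 0.52 ± 0.18 (adjusted p = 0.0968) with young MSCs. Leaving out any 1 senescent co-culture library, or control 4, ended the senescent call (adjusted p 0.0551 to 0.135). ITGA2, the main epithelial collagen receptor, had log2 fold changes of 0.02 ± 0.21 (adjusted p = 0.975) and 0.01 ± 0.21 (adjusted p = 0.9847).

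Of the laminin receptors, ITGB4 (ENSG00000132470.14, chromosome 17, 75721328 to 75757818), the hemidesmosome beta chain that pairs with alpha 6, was at 96.9, 107 and 106 CPM in senescent co-culture, 136, 92.8 and 153 CPM in young co-culture and 73.2, 39.1 and 68.8 CPM in control. The log2 fold changes were 0.82 ± 0.23 (adjusted p = 0.0494) with senescent and 1.12 ± 0.23 (adjusted p = 0.0114) with young MSCs. The senescent call was lost in 5 of 6 fits that left out 1 library, all but that without control 2 (adjusted p 0.0651 to 0.159). It was also lost with edgeR's RLE factors in place of TMM (0.0583). The young call was lost without young co-culture 4 (0.0531). ITGA7 (ENSG00000135424.18, chromosome 12, 55684568 to 55716043), a muscle laminin receptor, was at 1.46, 1.62 and 1.05 CPM in senescent co-culture, 0.896, 0.745 and 0.729 CPM in young co-culture and 0.578, 0.530 and 0.772 CPM in control. It was higher with senescent MSCs, 1.19 ± 0.24 (adjusted p = 0.00887) on the log2 scale, a call lost without senescent co-culture 3 (0.0551), and was 0.37 ± 0.24 (adjusted p = 0.376) with young MSCs. ITGA6, the partner of ITGB4, did not pass, with log2 fold changes of -0.0044 ± 0.15 (adjusted p = 0.993) and -0.20 ± 0.15 (adjusted p = 0.480). ITGA3 had 0.40 ± 0.20 (adjusted p = 0.297) and 0.24 ± 0.20 (adjusted p = 0.533), and ITGB1 0.39 ± 0.16 (adjusted p = 0.190) and 0.32 ± 0.16 (adjusted p = 0.252).

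**Figure D1:**
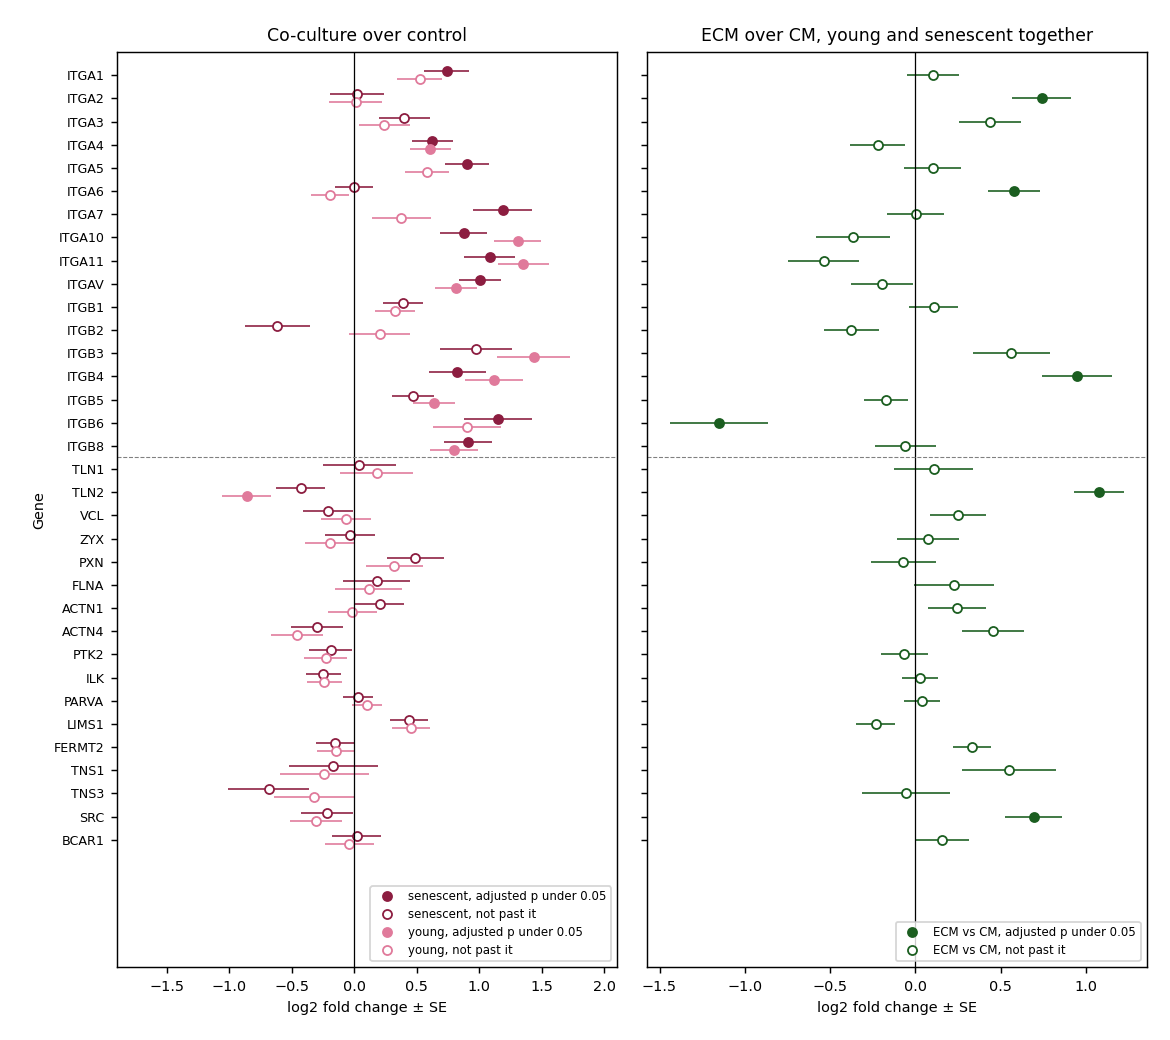
Log2 fold changes with their standard errors (x axes) of the 34 members tested (y axis): senescent and young co-culture over control on the left, ECM over CM on the right, filled where the adjusted p was under 0.05. The integrin chains, above the dashed line, lie mostly right of 0 in co-culture, up to 1.43 for ITGB3 with young MSCs, while TLN2, below it, is at -0.86.

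Stromal transcripts moved with the same groups. COL1A1 was at 117 to 165 CPM in senescent co-culture, 47.8 to 71.2 CPM in young co-culture and 5.7 to 6.12 CPM in control, and the 16 stromal markers summed to 662 to 679, 401 to 597 and 88.9 to 148 CPM. None of the 16 was at 0 in a co-culture library, and at most 1 was in a control library. Senescent minus young co-culture was positive for 14 of the 16, and TERT and FAP went the other way. TERT averaged 3.74 CPM in senescent co-culture, 6.73 CPM in young co-culture and 1.67 CPM in control, and FAP 57.3, 66.2 and 28.2 CPM. In replicate 1 of control, ECM and CM, TERT was at 655 to 1298 CPM. The 13 endothelial markers summed to 4096 to 4267, 3653 to 4215 and 1904 to 2585 CPM in those groups. The 6 epithelial markers summed to 3129 to 3588, 3835 to 4512 and 1970 to 2496 CPM. Member levels were also set against COL1A1 in the replicate 1 libraries of control, ECM and CM. ITGA11 stood at 1.58 to 1.85 CPM per 100 CPM of COL1A1 in those 5 libraries. Its excess over control was 0.616 to 3.21 CPM per 100 over both co-cultures together. Every senescent co-culture library lay below, and every young one above, the range of those 5 replicate 1 libraries. For ITGAV the values were 1.73 to 4.85 in those libraries against an excess of 45.1 to 157 in co-culture, for ITGA5 22.1 to 55.4 against 329 to 847, for ITGB4 0.717 to 1.84 against 23 to 220, and for ITGB8 0.0622 to 0.179 against 2.95 to 14.2. The part of stromal, endothelial and epithelial marker levels in these results was not tested.

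**Figure D2:**
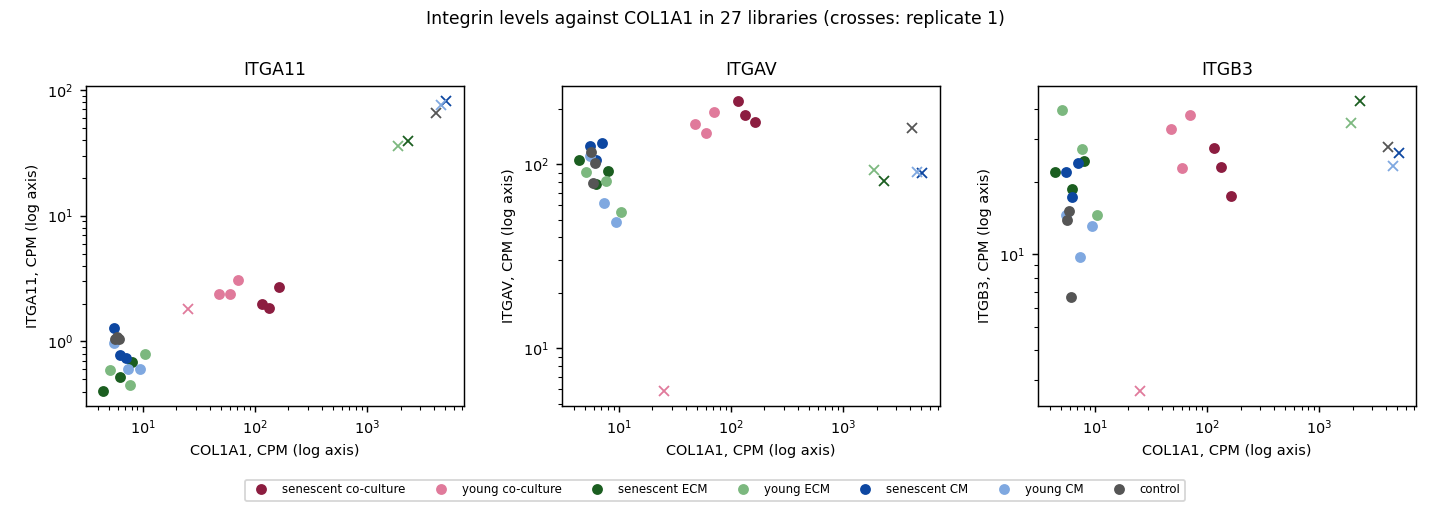
CPM of ITGA11, ITGAV and ITGB3 (y axes, log scale) against COL1A1 CPM (x axes, log scale) in all 27 libraries, coloured by group, with replicate 1 as crosses. ITGA11 is highest, at 35.5 to 81.9 CPM, in the 5 crosses with COL1A1 at 1915 to 5135 CPM, whereas ITGAV in those 5, at 80.5 to 157 CPM, lies below or within the 148 to 221 CPM of co-culture replicates 2 to 4. Young co-culture 1 is the cross at 5.86 CPM of ITGAV.

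Between senescent and young co-culture, 0 members passed the adjusted threshold, against 0.395% of all genes (0.316% higher and 0.079% lower). By edgeR 4 members had an unadjusted p under 0.05, beside 5.6% of all genes, and DESeq2 called 0. ITGA7 was at 1.46, 1.62 and 1.05 CPM in senescent and 0.896, 0.745 and 0.729 CPM in young co-culture, a log2 difference of 0.81 ± 0.23 (adjusted p = 0.340), and no senescent library fell in the young range. ITGA10 was at 11.5 ± 1.51 CPM in senescent and 15.6 ± 2.56 CPM in young co-culture (SD, n = 3 each), a log2 difference of -0.43 ± 0.18 (adjusted p = 0.820). ITGB2 was at 0.231, 0.384 and 0.279 CPM against 0.557, 0.472 and 0.5682 CPM, a log2 difference of -0.82 ± 0.26 (adjusted p = 0.472). TLN2 was at 2.54, 2.54 and 2.16 CPM against 2.13, 1.42 and 1.87 CPM, a log2 difference of 0.43 ± 0.20 (adjusted p = 0.891).

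On ECM, TLN2, ITGB4, ITGA2, SRC and ITGA6 were higher and ITGB6 was lower than in CM. Over young and senescent groups together, 5 members were called higher and 1 lower on ECM, against 6.79% and 5.02% of all genes (11.8% in either direction). Both chains of the laminin receptor alpha 6 beta 4 were higher than in CM. Control averaged 60.4 CPM for ITGB4, 324 for ITGA6, 108 for ITGA2, 174 for SRC, 3.37 for TLN2 and 0.389 CPM for ITGB6. ITGB4 was at 108, 121 and 73.1 CPM in senescent ECM and 128, 65.0 and 138 CPM in young ECM, against 75.2, 62.6 and 56.0 CPM in senescent CM and 45.2, 34.6 and 55.9 CPM in young CM. Young ECM 3 and senescent ECM 4 lay inside the CM range, and the difference on the log2 scale was 0.95 ± 0.21 (adjusted p = 0.00662). ITGA6 (ENSG00000091409.16, chromosome 2, 172427354 to 172506282) was at 368, 350.3 and 419 CPM in senescent ECM and 365, 229 and 394 CPM in young ECM, against 292, 239 and 202 CPM in senescent CM and 185, 188 and 298 CPM in young CM, a log2 difference of 0.58 ± 0.15 (adjusted p = 0.0226). Young ECM replicate 3, at 229 CPM, overlapped the CM range. The call was lost in 7 of 12 fits that left out 1 library: young ECM 2 or 4, senescent ECM 4, young CM 2 or 3, and senescent CM 3 or 4 (adjusted p 0.051 to 0.071).

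The collagen receptor ITGA2 (ENSG00000164171.11, chromosome 5, 52989326 to 53094779) was at 177, 154 and 132 CPM in senescent ECM and 173, 101 and 195 CPM in young ECM, against 123, 103 and 87.8 CPM in senescent CM and 63.7, 65.5 and 112 CPM in young CM. The log2 difference was 0.74 ± 0.17 (adjusted p = 0.0100), with young ECM 3 inside the CM range. TLN2 (ENSG00000171914.16, chromosome 15, 62390526 to 62844631), the talin of muscle and brain that binds integrin beta tails, was at 5.13, 5.75 and 6.10 CPM in senescent ECM and 4.29, 4.30 and 4.49 CPM in young ECM, against 3.00, 2.43 and 1.60 CPM in senescent CM and 2.34, 2.13 and 2.42 CPM in young CM. All 6 ECM libraries lay above the 6 CM ones, and the log2 difference was 1.08 ± 0.14 (adjusted p = 0.000147). SRC (ENSG00000197122.12, chromosome 20, 37344685 to 37406050), the tyrosine kinase that acts with FAK, was at 232, 244 and 192 CPM in senescent ECM and 239, 167 and 279.8 CPM in young ECM. It was at 176, 145 and 125 CPM in senescent CM and 132, 109 and 142 CPM in young CM. The log2 difference was 0.69 ± 0.17 (adjusted p = 0.0123), with young ECM 3 inside the CM range. ITGB6 was lower on ECM: 0.283, 0.0878 and 0.303 CPM in senescent ECM and 0.298, 0.198 and 0.282 CPM in young ECM, against 0.406, 0.719 and 0.783 CPM in senescent CM and 0.303, 0.518 and 0.531 CPM in young CM. The log2 difference was -1.15 ± 0.29 (adjusted p = 0.0154), and it rests on 7 to 77 counts a library. The highest ECM library and the lowest CM library were both at 0.303 CPM. Leaving out young ECM replicate 3 raised the members called from 6 to 11. No share over all genes is given for that fit, so the rise cannot be read as particular to the members. Of 5 epithelial markers tested 3 were lower on ECM (KRT7, KRT8 and KRT18), and KRT19 and EPCAM, both near or under 1 CPM, had positive differences that did not pass. KRT7 averaged 541 ± 56.8 CPM on ECM and 2573 ± 528 CPM in CM (SD, n = 6 each), a log2 difference of -2.26 ± 0.13 (adjusted p = 6.40e-08), and the sum of the 6 epithelial markers, which KRT7 leads, was 1026 to 1319 CPM on ECM and 3383 to 5292 CPM in CM. The stromal markers summed to 74.9 to 109 CPM on ECM and 115 to 288 CPM in CM, a sum led by COL5A1 and FAP. Those 2 were the only ones of 15 tested that were called, both lower on ECM. COL5A1 averaged 47.4 CPM on ECM and 123.5 CPM in CM, and FAP 17.6 and 47.3 CPM. COL1A1 averaged 7.01 and 6.91 CPM, and 3 of the 15 had a positive difference. The part of these markers in the member results was not tested.

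**Figure D3:**
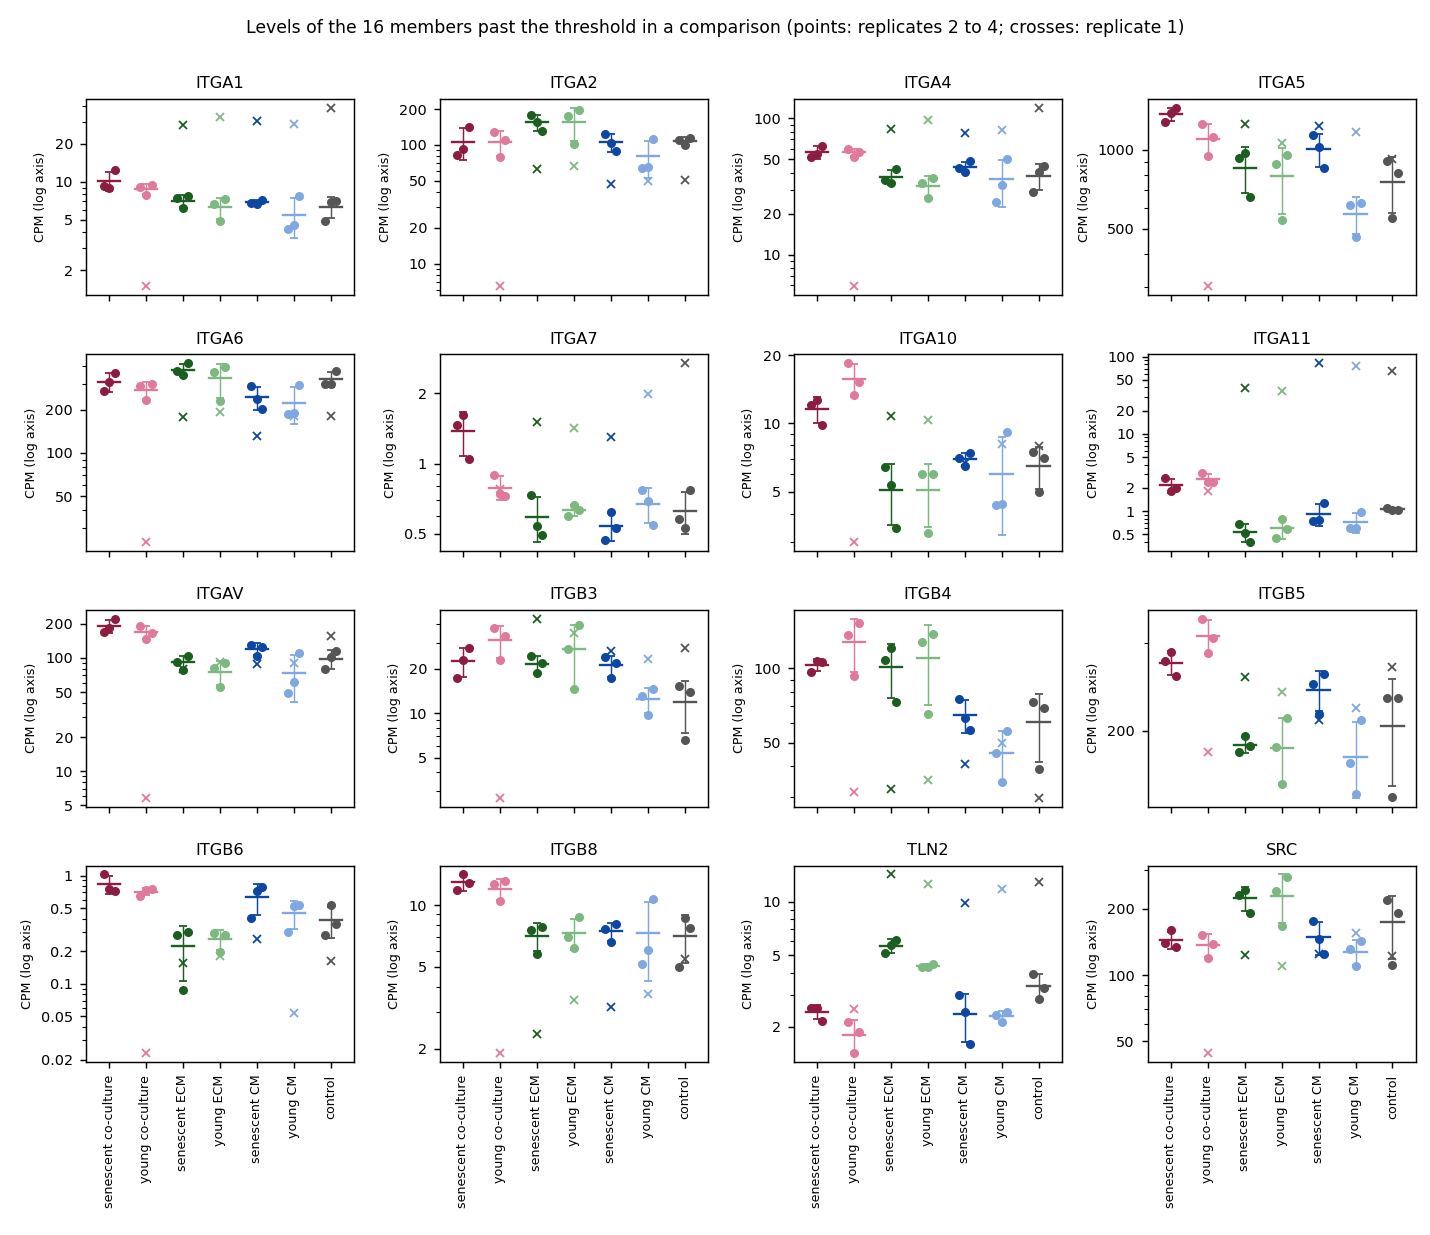
CPM (y axes, log scale) of the 16 members past the threshold in any comparison, by group on the x axis, with replicates 2 to 4 as points, their mean and SD as bars and replicate 1 as crosses. TLN2 sits at 4.29 to 6.1 CPM in the 6 ECM libraries and 1.6 to 3 CPM in the 6 CM ones, and ITGA11 in replicate 1 reaches 81.9 CPM.

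Against control, 0 members passed for matrix or medium. Of all genes 0.3% were called for senescent ECM (0.222% higher and 0.0777% lower), 0.649% for young ECM (0.461% and 0.189%), 0.505% for senescent CM (0.305% and 0.2%) and 0% for young CM. In that order 5, 5, 2 and 2 members had an unadjusted p under 0.05, beside 6.79%, 8.52%, 6.36% and 4.7% of all genes, and DESeq2 called 1, 1, 0 and 0 members. ITGB3 was at 24.3, 18.6 and 22.0 CPM in senescent ECM, 27.3, 14.6 and 39.7 CPM in young ECM and 15.2, 6.66 and 13.9 CPM in control, with log2 fold changes of 0.86 ± 0.32 (adjusted p = 0.495) and 1.20 ± 0.32 (adjusted p = 0.127). With the replicate number as a block, which pairs the young ECM and control libraries, ITGB3 passed in young ECM (1.19, adjusted p = 0.00719), and DESeq2 called it too (1.21, adjusted p = 0.0141). TLN2 had 0.74 ± 0.20 (adjusted p = 0.188) in senescent ECM, where DESeq2 called it (0.75, adjusted p = 0.0292), -0.52 ± 0.20 (adjusted p = 0.574) in senescent CM and -0.52 ± 0.20 (adjusted p = 0.860) in young CM. ITGB4 was at 108, 121 and 73.1 CPM in senescent ECM, 128, 65.0 and 138 CPM in young ECM and 73.2, 39.1 and 68.8 CPM in control, with log2 fold changes of 0.74 ± 0.29 (adjusted p = 0.567) and 0.88 ± 0.29 (adjusted p = 0.286). ITGA11, the fibroblast collagen receptor, was at 0.682, 0.527 and 0.404 CPM in senescent ECM, 0.452, 0.790 and 0.594 CPM in young ECM and 1.08, 1.04 and 1.05 CPM in control, and its log2 fold changes were -0.98 ± 0.29 (adjusted p = 0.257) and -0.78 ± 0.29 (adjusted p = 0.377). ITGA2 had 0.55 ± 0.24 (adjusted p = 0.552) in young ECM, ITGA6 -0.50 ± 0.22 (adjusted p = 0.860) in young CM, and ITGB2 -0.57 ± 0.23 (adjusted p = 0.5675) and -0.50 ± 0.23 (adjusted p = 0.561) in senescent and young ECM. Leaving out young ECM replicate 3 raised the count for young ECM to 1 member, with no share over all genes given for that fit.

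Senescence of the MSCs moved no member past the threshold in ECM or in CM, where the shares over all genes were 0% and 0.0167%. On ECM 0 members had an unadjusted p under 0.05, beside 0.783% of all genes, and DESeq2 called 0. In CM 4 did, beside 5.41% of all genes, again with 0 called by DESeq2. ITGA5 was at 1138, 1024 and 853 CPM in senescent CM and 617, 465 and 629 CPM in young CM, with no overlap and a log2 difference of 0.79 ± 0.24 (adjusted p = 0.659). ITGAV was at 131, 105 and 125 CPM in senescent CM and 48.8, 61.8 and 110.3 CPM in young CM, where the groups overlap, a log2 difference of 0.68 ± 0.26 (adjusted p = 0.765). ITGB3 had a log2 difference of 0.73 ± 0.32 (adjusted p = 0.765), and ITGB5 one of 0.42 ± 0.18 (adjusted p = 0.765). Over the 34 members 31 had a positive difference, with a median of 0.31 beside -0.03 over all genes. Young CM minus control had 5 of 34 positive and a median of -0.23 beside 0.01 over all genes, and senescent CM minus control had 18 of 34 positive with a median of 0.06. Young CM libraries enter the first and second of these. The stromal markers summed to 229 to 288 CPM in senescent CM and 115 to 142 CPM in young CM, a sum led by COL5A1 and FAP. COL5A1 averaged 184.8 CPM in senescent and 62.3 CPM in young CM, FAP 55.1 and 39.6 CPM, and COL1A1 6.29 and 7.53 CPM. Of 15 stromal markers tested 4 had a positive difference, and the median was -0.16. The endothelial markers summed to 2689 to 3166 and 2062 to 2563 CPM. Ribosomal protein genes took 5.97, 8.24 and 8.0% of counts in senescent CM and 10.7, 10.9 and 7.12% in young CM, and the length slopes were 0.113, -0.0675 and -0.0211 against -0.21, -0.253 and 0.0299. The part of these measures was not tested.

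Filamin and several other focal adhesion proteins were low in the same libraries. FLNA was at 2911, 3749 and 3481 CPM in senescent co-culture, 3839, 2392 and 3533 CPM in young co-culture, 3231, 3585 and 2164 CPM in senescent ECM, 3640.1, 1699.8 and 3569.7 CPM in young ECM, 3812, 2828 and 2537 CPM in senescent CM, 2188, 1513 and 2518 CPM in young CM and 4165, 1709 and 3404 CPM in control. Its lowest library was replicate 3 in control, young ECM, young CM and young co-culture, replicate 4 in senescent ECM and senescent CM, and replicate 2 in senescent co-culture. TLN1, VCL, ACTN1, ACTN4, PARVA, TNS1, TNS3, ITGA5 and ITGB4 had their lowest value in that same library in 7 of 7 groups. ITGA2, ITGA3, PXN, ZYX and SRC did so in 6 of 7, ILK in 0 of 7. How many of all genes share that library was not counted, so the pattern cannot be called particular to these genes. Each library's GC slope was fitted across genes on log2 level minus the mean over groups, together with the length slope. It is given per 10 points of GC in the gene's longest transcript. The GC slope was lowest in the FLNA-lowest library in 6 of 7 groups, for example -0.302 in control 3 and 0.256 in control 2. In senescent co-culture it was 0.0588 in replicate 2 and 0.0154 in replicate 4. The length slope, per doubling of the length of that transcript, was also lowest in the FLNA-lowest library in 6 of 7 groups. The ribosomal protein share was highest there in 5 of 7, at 9.07% in control 3 and 10.9% in both young ECM 3 and young CM 3. The part of these 3 measures was not tested. FLNA has 62.2% GC in its longest transcript, VCL 45.1% and PARVA 44.2%. With the slopes as terms, TNS3 had log2 fold changes of -1.01 in senescent and -0.59 in young co-culture, and ACTN4 -0.44 and -0.55, all past the threshold.

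**Figure D4:**
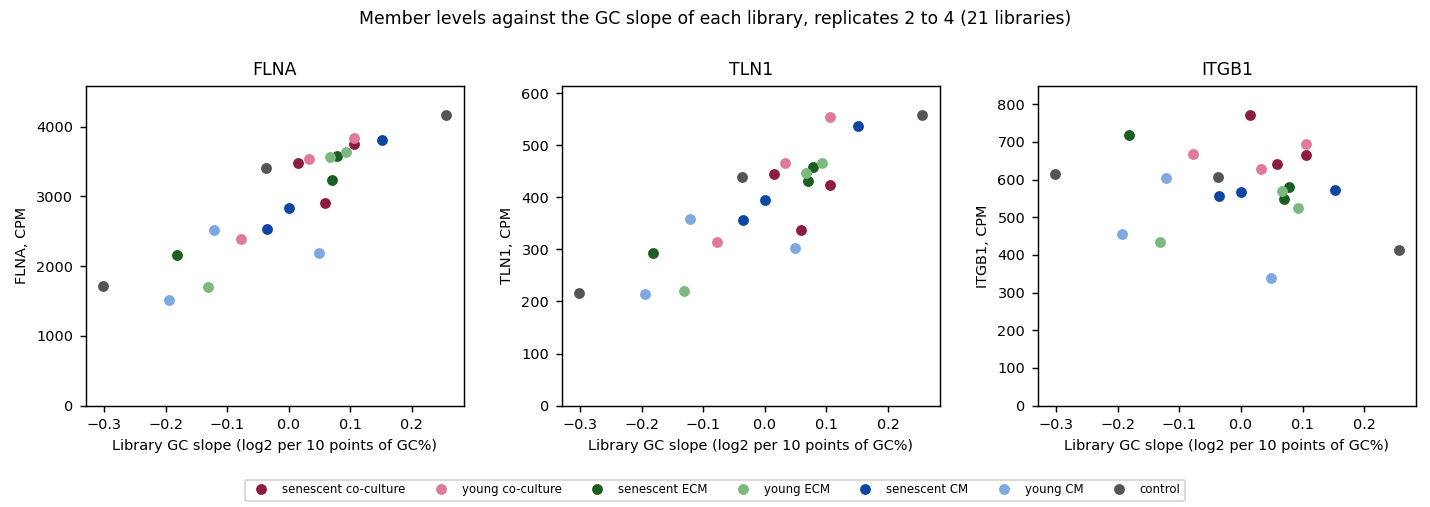
CPM of FLNA, TLN1 and ITGB1 (y axes, from 0) against the GC slope of each of the 21 libraries of replicates 2 to 4 (x axes, log2 per 10 points of GC), coloured by group. FLNA runs from 1513 CPM in young CM 3 to 4165 CPM in control 2. The slopes of those libraries are -0.194 and 0.256.

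TLN2 was lower in young co-culture, at 2.13, 1.42 and 1.87 CPM against 3.95, 2.87 and 3.30 CPM in control, a log2 fold change of -0.86 ± 0.19 (adjusted p = 0.0176). The call was lost without young co-culture 3 or 4 (adjusted p = 0.0652 and 0.063). In senescent co-culture TLN2 was at 2.54, 2.54 and 2.16 CPM, and its log2 fold change was -0.43 ± 0.19 (adjusted p = 0.232). The other 16 focal adhesion proteins did not pass in co-culture. LIMS1, the PINCH adaptor of the ILK complex, was nearest among them, with 0.44 ± 0.15 (adjusted p = 0.116) and 0.45 ± 0.15 (adjusted p = 0.0905) in senescent and young co-culture; reads of its near-identical copies LIMS3 and LIMS4 may be split from it. Its partners ILK and PARVA had log2 fold changes of -0.25 and -0.24, and 0.03 and 0.10. ACTN4 had -0.30 ± 0.21 (adjusted p = 0.471) and -0.46 ± 0.21 (adjusted p = 0.209), and TNS3 (tensin 3) -0.69 ± 0.32 (adjusted p = 0.254) and -0.32 ± 0.32 (adjusted p = 0.604). PTK2 (FAK) had -0.19 and -0.23, and the other kinase SRC -0.22 and -0.31. On ECM against CM, FERMT2 (kindlin 2) had 0.33 ± 0.11 (adjusted p = 0.0634) and ACTN4 0.46 ± 0.18 (adjusted p = 0.127), the focal adhesion proteins nearest the threshold after those called.

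**Figure D5:**
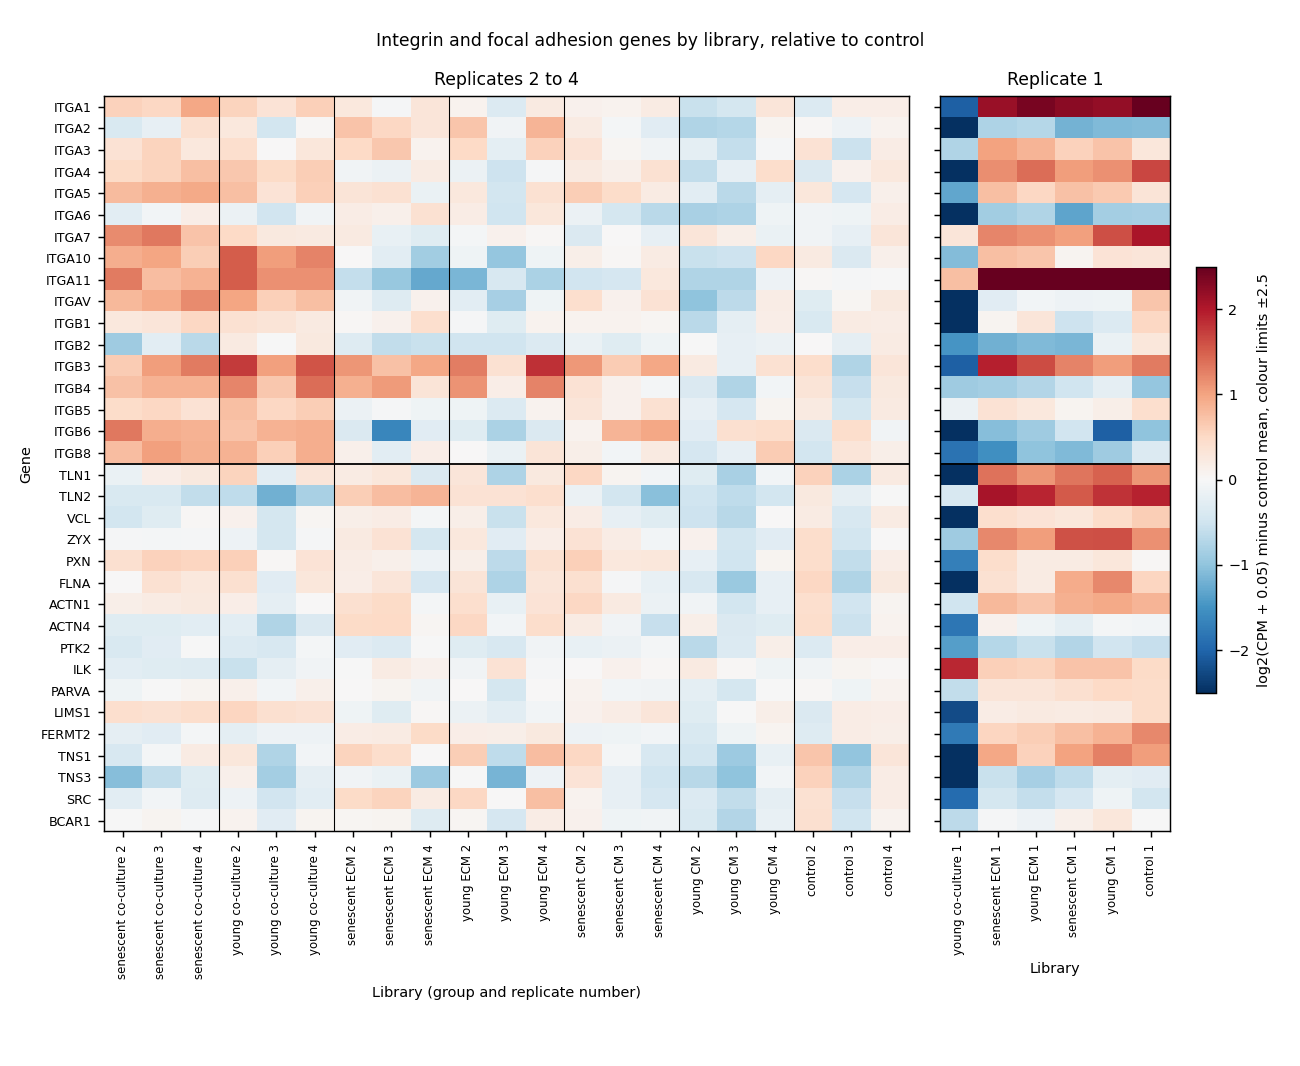
Log2(CPM + 0.05) minus the control mean of replicates 2 to 4 (colour, limits ±2.5) for the 34 members tested (y axis) in each library (x axis), integrins above the black line, replicate 1 in the right panel. The rows of ITGAV, ITGA11 and ITGB8 are above control in all 6 co-culture columns, and ITGA11 stands at 35.5 to 81.9 CPM in 5 of the 6 replicate 1 columns.

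Promoters were read for the 27 members with an entry in the RefSeq promoter table (250 bases before to 50 after the start, GRCh38.p14). Words were searched on both strands. The CArG box, bound by serum response factor, was in 2 of 27 (7.41%), FLNA and ITGB6, against 1.29% of all 27305 promoters. AP-1 words (TGACTCA or TGAGTCA) were in 7.41% against 4.92%, GGAATG, a TEAD word, in 14.8% against 14%, and GGGCGG, the GC box, in 66.7% against 44.6%. The 3 stretches below are shown because FLNA is the most abundant member, ITGB6 differs between ECM and CM, and ITGB5 is a called alpha V partner without a CArG box. Capitals mark the CArG box in FLNA (chrX:154374640-154374784, minus strand) and ITGB6 (chr2:160200318-160200422, minus strand), and GC boxes in ITGB5 (chr3:124901419-124901568, minus strand), all 5′ to 3′. A match describes letters, and binding was not measured.
FLNA: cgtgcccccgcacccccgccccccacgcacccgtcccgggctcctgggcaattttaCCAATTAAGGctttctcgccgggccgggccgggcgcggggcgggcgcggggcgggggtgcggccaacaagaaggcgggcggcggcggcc
ITGB6: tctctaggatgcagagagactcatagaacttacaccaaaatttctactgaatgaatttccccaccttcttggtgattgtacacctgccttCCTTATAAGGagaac
ITGB5: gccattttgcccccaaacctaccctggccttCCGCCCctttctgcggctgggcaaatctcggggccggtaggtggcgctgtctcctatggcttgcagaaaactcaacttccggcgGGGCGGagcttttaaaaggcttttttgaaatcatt

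Further adhesome genes and integrin ligands set the members in context. Of 75 further adhesome genes, 72 were tested in co-culture: 5 were called higher and 1 lower with senescent MSCs, and 8 and 1 with young MSCs, with medians of 0.05 in both. These are 8.33% and 12.5% of the list, near the 8.05% and 9.68% of all genes called. MYL9, the myosin light chain, averaged 13.3 ± 5.09 CPM in senescent co-culture, 6.85 ± 1.59 CPM in young co-culture and 1.38 ± 0.152 CPM in control, with log2 fold changes of 3.32 ± 0.30 (adjusted p = 4.90e-05) and 2.35 ± 0.29 (adjusted p = 0.000459). NEDD9, a p130Cas relative, averaged 16.4 ± 1.57 and 14.6 ± 1.33 CPM in those co-cultures against 6.29 ± 0.523 CPM, with 1.43 ± 0.14 (adjusted p = 6.99e-05) and 1.25 ± 0.14 (adjusted p = 0.000227). It was also higher in senescent CM, at 13.2 ± 0.0826 CPM, than in young CM, at 5.24 ± 0.4931 CPM, a log2 difference of 1.31 ± 0.15 (adjusted p = 0.00594), or in control (1.08 ± 0.15, adjusted p = 0.00476). APBB1IP, which recruits talin, had 2.92 ± 0.30 (adjusted p = 0.000110) and 2.68 ± 0.30 (adjusted p = 0.000251), EFS, another Cas family adaptor, 3.04 ± 0.39 (adjusted p = 0.000546) with senescent MSCs, and LAYN, a hyaluronan receptor, 2.60 ± 0.48 (adjusted p = 0.00611) with young MSCs. On ECM against CM 7 of 69 were called higher and 3 lower, 14.5% in all beside 11.8% of all genes. FERMT3 (kindlin 3, the kindlin of blood cells) averaged 9.02 ± 0.977 CPM on ECM and 2.62 ± 0.506 CPM in CM, a log2 difference of 1.76 ± 0.15 (adjusted p = 2.74e-06), and was also higher in young ECM than in control (0.99 ± 0.21, adjusted p = 0.0408). DAB2 (an integrin endocytosis adaptor) had 0.76 ± 0.13 (adjusted p = 0.000973), CD47 (a thrombospondin receptor that binds integrins) 0.52 ± 0.09 (adjusted p = 0.00101) and PDLIM5 (an actin-associated LIM protein) 0.56 ± 0.10 (adjusted p = 0.00197). Of the 7 leukocyte and platelet integrin chains, 5 were tested there and 4 in co-culture, and 1 passed in any comparison. It was ITGAX, named after its values were seen, higher on ECM than in CM at 0.57 ± 0.14 (adjusted p = 0.0162), a call lost without young CM 3 or senescent CM 4.

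Of 40 integrin ligands, 37 were tested, and 17 were called higher and 1 lower in senescent co-culture, 18 and 1 in young co-culture, with medians of 0.84 and 0.86. These are 48.6% and 51.4% of the ligands tested, beside 8.05% and 9.68% of all genes called. The collagens led: COL1A1 had 4.60 ± 0.20 (adjusted p = 5.98e-07) and 3.37 ± 0.19 (adjusted p = 5.22e-06), COL1A2 3.89 ± 0.20 (adjusted p = 1.85e-06) and 2.57 ± 0.19 (adjusted p = 1.98e-05), COL3A1 4.02 ± 0.23 (adjusted p = 4.29e-06) and 2.33 ± 0.22 (adjusted p = 0.000110), and COL6A3 3.27 ± 0.24 (adjusted p = 1.71e-05) and 2.55 ± 0.24 (adjusted p = 0.000107). These 4 are stromal markers as well. Senescent co-culture was higher than young co-culture for COL3A1 (1.69 ± 0.21, adjusted p = 0.00429), COL1A2 (1.31 ± 0.18, adjusted p = 0.00734) and COL1A1 (1.22 ± 0.18, adjusted p = 0.0109), all 3 of the ligands that passed there. Those 3 are 8.11% of the ligands tested, beside 0.395% of all genes. On ECM against CM 2 ligands were called higher and 2 lower, 10.8% in all beside 11.8% of all genes. SPP1 (osteopontin, an alpha V ligand) averaged 8.83 ± 1.46 CPM on ECM and 3.88 ± 1.07 CPM in CM, a log2 difference of 1.16 ± 0.19 (adjusted p = 0.000875), and LAMA5 (laminin alpha 5) 389 ± 136 and 199 ± 83.2 CPM, 0.99 ± 0.31 (adjusted p = 0.0469). CCN1 and THBS1, matricellular ligands, were lower on ECM: 282 ± 52.5 CPM against 519 ± 77.9 CPM in CM for CCN1 (-0.90 ± 0.15, adjusted p = 0.000875), and 472 ± 118 against 1012 ± 432 CPM for THBS1 (-1.04 ± 0.23, adjusted p = 0.00738).

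In the replicate 1 libraries of control, ECM and CM, 12 of 36 members lay above every one of the 21 other libraries in all 5. How many of all genes did so was not counted. ITGA11 was at 39.3 and 35.5 CPM in senescent and young ECM, 81.9 and 76.1 CPM in senescent and young CM and 65.9 CPM in control. ITGA1 spanned 28.1 to 38.6 CPM there and TLN2 9.77 to 14.2 CPM, while ITGA2 and ITGA6 lay at 47.03 to 65.9 and 130.1 to 193 CPM. Of the 16 called members, 3 share exon bases with other genes of GENCODE 29 on the same strand, ITGB3 with 51.6% of its exon bases, ITGB6 with 20.6% and ITGA1 with 5.63%, and 8 share up to 5.37% on the opposite strand, so their counts depend on how the authors' counting gave out those reads. ILK shares 78.5% of its exon bases with genes on the opposite strand, among them TAF10, and the strand setting of the counting is not given in the sources used here.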

How the data were processed

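Poly(A) RNA of 27 libraries was made into directional libraries and sequenced, per the labels' protocols. The deposited table holds raw counts per gene that the authors made with HISAT2 2.2.1 and featureCounts 2.0.1 on GRCh38, per the submitters' processing notes. Annotation release and strand setting: not given in the sources used here. Of 60648 entries, 44 Y copies of pseudoautosomal genes were left out, and totals ran from 66320519 to 111512357 counts per library, so counting error is small beside the spread between libraries except for members with few counts. Replicates of a group differed beyond sampling noise, with a lowest chi-square of 21.9 per degree of freedom. Groups follow the labels, and 0 columns of other samples were present.

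The main test was edgeR 4.0.16's quasi-likelihood F-test in R 4.3.3 (filterByExpr with a minimum count of 10, TMM, Benjamini-Hochberg adjustment over all genes tested, threshold 0.05). Control, ECM and CM libraries were fitted together (15 libraries, 18015 genes), and control with co-culture apart (9 libraries, 17729 genes), for 10 comparisons. The SE is the absolute log2 fold change over the square root of F. Levels are CPM with TMM over the 27 libraries, and levels per kilobase use GENCODE 29 exon lengths. The fit was tested on simulated data with 200 changed genes. Members past the threshold in any comparison are given in every library, others by range and count. From the pathway lists up to 4 genes a comparison with the smallest adjusted p are named. A gene of the ligand list is not reported here by name. The members and lists were chosen with earlier results of these data known.

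The replicate numbers pair libraries in 3 of 9 comparisons, by correlated deviations from the group means across genes. These are young ECM against control (0.406, 0.534 and 0.275), young CM against control (0.324, 0.401 and 0.332) and young co-culture against control (0.423, 0.553 and 0.131). Alternatives were edgeR's RLE (relative log expression) factors in place of TMM, the Wald test of DESeq2 1.42.0, and no filter. Others were the replicate block, all replicates, 1 fit of 21 libraries, and each library left out. Library GC and length slopes as terms, alone and with the block, and replicates 2 and 4 alone were added after seeing the data.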

Additional observations from a re-analysis of the deposited data

Results flagged for a closer look

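Among 96 sets of 4 libraries (16 members in 6 groups), 21 held a library whose gap to its neighbour exceeded Dixon's 95% critical share of the range, where chance gives about 1 in 20. In 20 of the 21 the library was replicate 1, and in 19 it was high. ITGA11 stood apart in replicate 1 of senescent ECM (gap over range 0.993), young ECM (0.99), senescent CM (0.993), young CM (0.995) and control (0.999). ITGA1 did so in senescent ECM (0.931), young ECM (0.914), senescent CM (0.979), young CM (0.861) and control (0.938). TLN2 did so in senescent ECM (0.894), young ECM (0.976), young CM (0.97) and control (0.892). ITGA7 did so in young ECM (0.914), young CM (0.844) and control (0.888), and ITGA4 in young ECM (0.852). In young co-culture replicate 1, ITGA4 (0.87) and ITGB6 (0.86) were low. The other library was young CM replicate 4, where ITGA6 was high at 298 CPM (0.929).

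The effects of ECM and of CM against the same control differed, by the test of ECM against CM, for 6 members. The log2 difference, ECM minus CM, was 1.08 for TLN2, 0.95 for ITGB4, 0.74 for ITGA2, 0.69 for SRC, 0.58 for ITGA6 and -1.15 for ITGB6.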

How the results depend on the processing

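Of the 25 calls of named members, all 25 kept direction and side of the threshold without a filter, with DESeq2's Wald test, with the replicate block and with GC and length slopes, 24 did with edgeR's RLE factors, 21 in 1 fit of 21 libraries and 19 with replicates 2 and 4 alone. With all replicates 0 were kept and 5 reversed. The reversed ones were ITGA1 (-0.49), ITGA4 (-0.0374) and ITGA11 (-2.996) in senescent co-culture, and ITGA4 (-0.42) and ITGA11 (-2.81) in young co-culture. Senescent co-culture has no replicate 1, so in its comparison with control this setting adds a library to the control side only. That library, control 1, had ITGA11 at 65.9 CPM, against 1.04 to 1.08 CPM in control replicates 2 to 4. For the further adhesome genes, ligands and other integrin chains, counts here are genes called in at least 1 of the 10 comparisons. In the main fit these were 17 further adhesome genes, 23 ligands and 1 other integrin chain. Members called with all replicates were 0 in senescent co-culture, 0 in young co-culture and 0 for ECM against CM. Further adhesome genes were then 4, ligands 0 and other integrin chains 0. The cause was not tested. Without a filter, members called were 1 for senescent against young CM, 2 for senescent ECM, 2 for young ECM and 1 for senescent CM against control, 10 for ECM against CM, and other integrin chains 2. With DESeq2's Wald test they were 1 for senescent and 1 for young ECM against control, further adhesome genes 26 and other integrin chains 2. With the replicate block they were 1 for senescent ECM, 1 for young ECM and 1 for senescent CM against control (ITGB3 in each), further adhesome genes 30 and other integrin chains 2, where the numbers pair libraries in 3 of 9 comparisons. In 1 fit of 21 libraries other integrin chains were 2. With GC and length slopes they were 4 for senescent against young co-culture, 2 for senescent against young CM, 10 for senescent ECM, 7 for young ECM, 7 for senescent CM, 23 for senescent and 24 for young co-culture against control, and 20 for ECM against CM. With the replicate block and the slopes they were 9 for young ECM and 20 for young co-culture against control. Shares over all genes are not set beside the counts of these settings, so the counts cannot be read as particular to the members. Leaving out each library gave 3 to 11 members in senescent co-culture and 4 to 13 in young co-culture. It gave 5 to 11 for ECM against CM and 0 to 1 for young ECM. The lists gave 14 to 25 further adhesome genes, 19 to 29 ligands and 0 to 1 other integrin chains. For the lists, comparisons that did not involve the group of the left-out library kept their calls of the main fit. Fits without 1 library hold fewer samples, and no shares over all genes are given for them. Calls of ITGB6, ITGA7 and ITGA11 are limited by few counts.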
